A study of Mus musculus with 15 samples.

Results

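Of 9 mouse peripheral T cell lymphomas (mPTCL) profiled on oligonucleotide arrays, 5 carried much RNA of lysozyme and 4 carried little, and the rest of their expression was set side by side. The groups were chosen by a measured value and are not labelled conditions. A lymphoma counted as Lyz1-high when the deposited signal of the brightest Lyz1 probe set was above 5800 and as Lyz1-low when it was at or below 5800. The Lyz1-high lymphomas were mPTCL 1, 2, 4, 5 and 8, with signals of 25425, 14166, 33006, 17800 and 12970.4. The Lyz1-low lymphomas were mPTCL 3, 6, 7 and 9, with signals of 2045, 404, 67.8 and 651. The values nearest to the line were therefore 12970.4 in mPTCL 8 on the high side and 2045 in mPTCL 3 on the low side. The name of this probe set marks it as able to bind several transcripts. Another Lyz1 probe set of that kind put the lymphomas in the same groups, with 11969.7 to 28175 in Lyz1-high and 28.7 to 571 in Lyz1-low lymphomas, and so did the Lyz2 probe set, with 7347 to 29259 and 103 to 839 in the same groups. The remaining Lyz1 probe set did not follow the split and read only 16.8 to 61.7 over all 9 lymphomas. Which lysozyme transcript the signal came from was therefore not settled, and Lyz1-high and Lyz1-low name the probe set used. Lyz1 and Lyz2 were left out of the tests.

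The series holds 15 samples, each on 1 array. All 9 lymphomas arose in CD3KO recipient mice on the C57BL/6 background after transfer of p53KO T cells, and tumour cells were sorted out of the liver. The other 6 were normal p53KO T cells from 5-week-old C57BL/6 mice, sorted from liver or spleen, 3 of them activated in vitro and 3 resting. Their growth notes mention p53-deficient mice given PBS or heat-killed Streptococcus pneumoniae every 2 weeks, without saying whether these donors received either. All 15 samples thus carried the p53 deletion. Mice without CD3 have no T cells of their own but keep B cells and myeloid cells, so the hosts still had leukocytes other than T cells. The markers used for sorting are not given in the sources used here, and the labels do not say whether each lymphoma came from a separate animal, so each p-value reflects only how these samples scatter.

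Lysozyme is an enzyme that cuts bacterial cell walls. Neutrophils store it in their granules, and monocytes and macrophages secrete it, while T cells make little. Neutrophil granules form in a set order during maturation in the marrow: primary granules with myeloperoxidase and serine proteases at the promyelocyte stage, then secondary and tertiary granules with lactoferrin, lipocalin 2, cathelicidin and collagenases, while the calcium-binding proteins S100a8 and S100a9 fill the cytosol of mature cells. Mature neutrophils hold little mRNA of the primary granule proteins.

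Signals are linear intensities, scaled by the authors to the same trimmed mean in every array. For tests and means any value under 32 was raised to 32, which is 5 in log2, so a difference is a lower bound in size where signals under 32 lay in the dimmer group alone. Differences are Lyz1-high minus Lyz1-low on the log2 scale, given ± SE from limma over 5 and 4 arrays, and p-values adjusted by the Benjamini-Hochberg method are over all genes tested. A gene was called at an adjusted p under 0.05 and at least 2-fold. Where signals are listed, those of mPTCL 1, 2, 4, 5 and 8 come in that order, and then those of mPTCL 3, 6, 7 and 9.

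No difference in the means of 3 measures of RNA quality and scaling was detectable between the groups. The 3′ to 5′ ratio of actin averaged 2.03 ± 0.49 (SD, n = 5) in Lyz1-high and 1.80 ± 0.29 (SD, n = 4) in Lyz1-low lymphomas, and a two-sided exact permutation test gave p = 0.405. For Gapdh this ratio averaged 1.86 ± 0.26 and 1.84 ± 0.39 in the same groups (exact permutation p = 0.865). The median signal of an array averaged 93.9 ± 20.04 in Lyz1-high and 83.2 ± 4.38 in Lyz1-low lymphomas (exact permutation p = 0.333). With these group sizes the smallest p of such a test is 0.00794, and after adjustment over the 3 checks the values were 0.607, 0.865 and 0.607. Within the Lyz1-high group mPTCL 4 and 5 stood apart: their actin ratios of 2.41 and 2.65 and medians of 116 and 110.2 were the highest of the 9 lymphomas, and 27.6% and 27.9% of their probe sets were under 32, against 31.4% to 36.2% in the other 7.

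The genes called higher in Lyz1-high lymphomas included 5 of 13 tested secondary and tertiary granule proteins of neutrophils and 7 of 24 tested proteins of mature neutrophils, and no gene was called lower. Of 11053 genes tested, limma called 16 higher (0.145%) and 0 lower (0%). At an unadjusted p under 0.05, 451 genes were higher (4.08%) and 155 were lower (1.4%), against 374 higher and 276 lower when arrays were centred on their medians. In 206 genes (1.86%) every Lyz1-high signal lay above every Lyz1-low signal, and in 69 genes (0.624%) every one lay below. The median difference over all genes tested was 0.004. A gene had to reach 100 in 3 of the 9 lymphomas to be tested. Through the Lyz1-high arrays alone, with all 4 Lyz1-low signals under 100, 191 genes met this, among them 134 of the 451 and 82 of the 206, and through the Lyz1-low arrays alone 20 genes did. Such genes had to differ, so the counts of higher and lower genes are not an even comparison. The samples are bulk preparations, in which more cells of a type and more RNA per cell cannot be told apart, and the cells that this RNA came from were not identified.

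**Figure D1:**
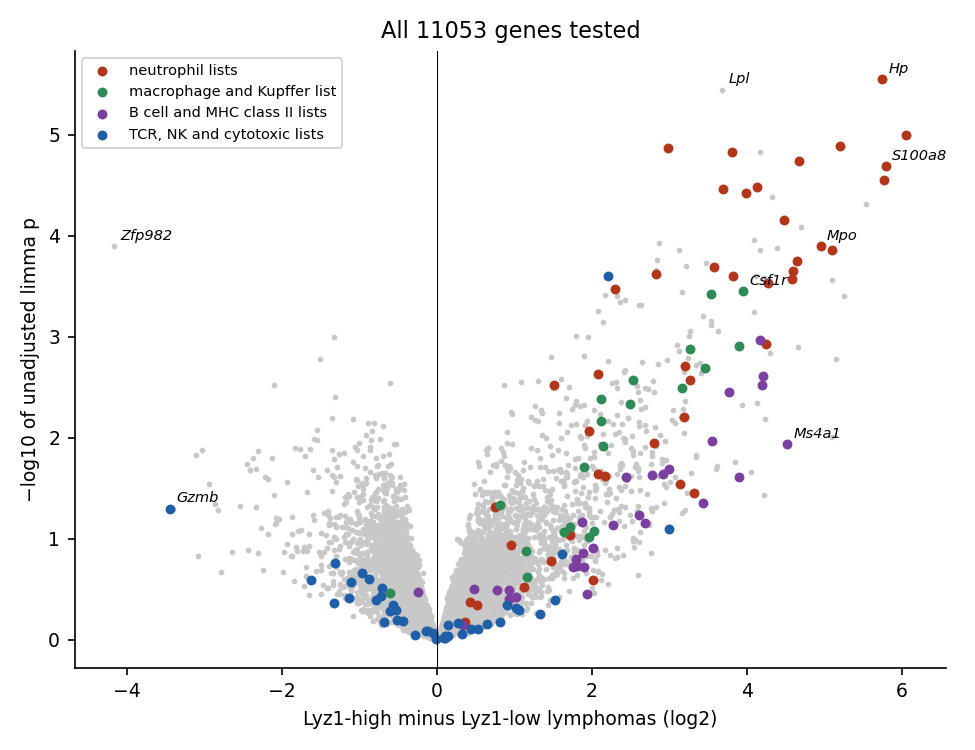
Each point is 1 of 11053 genes, with the Lyz1-high minus Lyz1-low difference (log2) on the horizontal axis and −log10 of the unadjusted limma p on the vertical axis; colours mark members of gene lists. The points with the smallest p lie on the right, among them Hp, Lpl and S100a8, and Zfp982 is the gene with the smallest p on the left.

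The 16 called genes were Hp, Lpl, Lcn2, Ngp, Il1b, Mcemp1, Ckap4, Camp, S100a8, S100a9, Wfdc21, Mmp8, Ifitm6, Mgst1, Mpeg1 and Wfdc17. Their adjusted limma p ran from 0.0197 to 0.0484, and their differences from 2.98 for Il1b to 6.06 for Lcn2. In each of the 16, all 5 Lyz1-high lymphomas lay above all 4 Lyz1-low lymphomas. The number of calls rested on single lymphomas: limma called 0 genes without mPTCL 1, 6 or 7 (480, 702 and 463 genes at an unadjusted p under 0.05), 1 without mPTCL 5, 4 without mPTCL 4 and 27 without mPTCL 2. With each lymphoma left out, the differences of the 16 genes stayed between 2.67 and 6.72. Without the signal requirement, over 18191 genes, none of the 16 was called, with the same differences. Mmp8, Lpl, Mcemp1 and Wfdc17 were tested through their Lyz1-high signals alone. Other probe sets existed for 3 of the 16. Of these 5 further probe sets all had a positive difference, 4 were at least 2-fold higher and 4 had groups that did not overlap.

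Secondary and tertiary granule proteins gave 5 of the 16 calls. Of 14 listed, 13 were tested and 5 were called (Lcn2, Hp, Ngp, Camp and Mmp8), against 0.145% of all genes, 10 were higher at an unadjusted p under 0.05 (4.08% of all genes), and 9 did not overlap between the groups (1.86% of all genes). The median difference of the 13 was 3.68, against 0.004 over all genes tested, and 2 of the 13 were tested through their Lyz1-high signals alone. Orm1 did not reach the signal required for testing.

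Lcn2, lipocalin 2, binds bacterial siderophores and so withholds iron from microbes. Its signals were 3825, 2292, 9533, 12309.8 and 3731 in Lyz1-high lymphomas, against 11.3, 119, 1.60 and 309 in Lyz1-low lymphomas, a difference of at least 6.06 ± 0.75 (limma adjusted p = 0.0234). The lowest Lyz1-high signal, in mPTCL 2, was above the highest Lyz1-low signal, in mPTCL 9. Activated and resting T cells gave less than 10 in every array.

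Ngp, a neutrophil granule protein of the cathelin family, had 9939, 5427, 11938, 24021 and 9074 in Lyz1-high lymphomas and 92.7, 472, 169.9 and 959 in Lyz1-low lymphomas (5.20 ± 0.66, adjusted p = 0.0234). Camp, the precursor of the antimicrobial peptide cathelicidin, lies on the same chromosome 9. Its signals were 3048, 1775, 2746, 5498 and 2836 in Lyz1-high lymphomas, against 26.2, 210.2, 90.1 and 306 in Lyz1-low lymphomas (at least 4.67 ± 0.62, adjusted p = 0.0248). Both genes were highest in mPTCL 5, and among the Lyz1-low lymphomas both were highest in mPTCL 9 and next highest in mPTCL 6.

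Mmp8, the neutrophil collagenase, reached 1078, 359, 1722, 523 and 374 in Lyz1-high lymphomas, against 58.7, 75.2, 24.5 and 50.9 in Lyz1-low lymphomas (at least 3.68 ± 0.53, adjusted p = 0.0316). Hp encodes haptoglobin, which binds free haemoglobin and is stored in these granules as well as secreted by hepatocytes. Hp signals were 5102, 1527, 10998, 5382 and 1839 in Lyz1-high lymphomas and 118, 79.7, 22.2 and 87.8 in Lyz1-low lymphomas (at least 5.75 ± 0.62, adjusted p = 0.0197). Since the cells came from liver, the albumin signal stands beside it: Alb read 33.1, 166, 78.9, 77.9 and 2385 in Lyz1-high lymphomas and 37.8, 106, 46.3 and 74.6 in Lyz1-low lymphomas. Alb was high in mPTCL 8 alone, which had the second lowest Hp signal of the Lyz1-high lymphomas. The source of the Hp RNA was not tested.

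The same list held genes that did not follow the split. Ltf, the iron-binding protein lactoferrin, had 3181, 2175, 2402, 3407 and 4136 in Lyz1-high lymphomas and 75.1, 151, 54.8 and 12872 in Lyz1-low lymphomas, so that its highest signal of all 9 lymphomas was in the Lyz1-low mPTCL 9. Its difference of 3.32 ± 1.36 was not called (adjusted p = 0.83), and without mPTCL 9 it became 5.12 and was called (adjusted p = 0.00342). Since mPTCL 9 alone broke the split in this gene, a call without it was largely fixed in advance. Mmp9, gelatinase B, was far above the rest in 1 lymphoma of each group, with 9424, 209.9, 473, 589 and 328 in Lyz1-high and 54.4, 8859, 58.9 and 33.9 in Lyz1-low lymphomas (adjusted p = 0.996). Cd177, a surface glycoprotein of neutrophils, did not overlap between the groups, with 829, 381, 1235, 1428 and 455 in Lyz1-high lymphomas and 6.17, 199, 12.5 and 80.9 in Lyz1-low lymphomas, but missed the threshold (at least 3.58 ± 0.63, adjusted p = 0.0742).

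Chil3, a chitinase-like protein of neutrophils and macrophages, was among the brightest genes. It had 24705, 10648, 39163, 36134 and 8054 in Lyz1-high lymphomas, against 2458, 2063, 153 and 573 in Lyz1-low lymphomas, a difference of 4.59 ± 0.82 that was not called (adjusted p = 0.0765). Even the Lyz1-low signals were above those of activated cells (4.75 to 39.4) and resting cells (4.82 to 146), by little in mPTCL 7 and more in mPTCL 3 and 6.

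The list of mature neutrophil proteins had 36 entries, of which 28 were on the array and 24 were tested. Of these, 7 were called (S100a8, S100a9, Wfdc17, Wfdc21, Ifitm6, Mcemp1 and Il1b), against 0.145% of all genes, 20 were higher at an unadjusted p under 0.05 (4.08% of all genes) and 16 did not overlap (1.86% of all genes). Their median difference was 2.90, and 5 of the 24 were tested through their Lyz1-high signals alone. Cxcr2, Stfa3, Ptgs2 and Siglece were too dim to test.

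S100a8 and S100a9 pair to form calprotectin, which binds calcium and zinc. S100a8 had 13580.3, 8470.2, 18427, 27142 and 10896 in Lyz1-high lymphomas, against 66.7, 639, 106 and 1037 in Lyz1-low lymphomas (5.79 ± 0.78, adjusted p = 0.0249). S100a9 had 14742, 7849, 17699.9, 31171 and 11666 in Lyz1-high lymphomas, against 57.0, 663, 137 and 1084 in Lyz1-low lymphomas (5.77 ± 0.80, adjusted p = 0.0307). The 9 lymphomas fell in the same order in both genes, with mPTCL 5 highest and mPTCL 3 lowest. In the Lyz1-low group mPTCL 9 and 6 were several-fold above the other two.

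Il1b, the cytokine interleukin-1β, varied little within the Lyz1-low group. Its signals were 835, 623, 876, 2278 and 831 in Lyz1-high lymphomas, against 134, 121, 105 and 134 in Lyz1-low lymphomas (2.98 ± 0.38, adjusted p = 0.0234). Mcemp1, a membrane protein of myeloid cells, had 955, 296, 839, 583 and 217 in Lyz1-high lymphomas and 48.9, 17.0, 6.65 and 22.9 in Lyz1-low lymphomas (at least 3.80 ± 0.49, adjusted p = 0.0234). Wfdc21 and Wfdc17, small secreted proteins with a whey acidic protein domain, differed by at least 4.13 ± 0.59 and at least 4.47 ± 0.69, and Ifitm6, of the interferon-induced transmembrane family, by at least 3.98 ± 0.57 (adjusted p = 0.0316, 0.0484 and 0.0317). For Wfdc17 the Lyz1-low signals were 39.3, 14.1, 7.68 and 14.1, all at or near the floor, and the Lyz1-high signals ran from 292 to 3978.

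The other 4 called genes are in neither of these lists. Mpeg1, perforin-2, a pore-forming protein that phagocytes use against bacteria, had 11104, 2456, 23745, 7237 and 2801 in Lyz1-high lymphomas and 346, 178, 16.9 and 219 in Lyz1-low lymphomas (at least 5.53 ± 0.82, adjusted p = 0.0352). Lpl, lipoprotein lipase, which releases fatty acids from triglycerides and is made by macrophages among other cells, had 1041, 403, 484, 674 and 953 in Lyz1-high lymphomas and 60.2, 49.3, 5.18 and 76.8 in Lyz1-low lymphomas (at least 3.68 ± 0.41, adjusted p = 0.0197). The levels of Lpl had another order than those of the granule genes: mPTCL 1 and 8 were highest and mPTCL 2 lowest of the Lyz1-high group. Mgst1, a microsomal glutathione transferase, and Ckap4, a membrane protein of the endoplasmic reticulum, were higher by 4.32 ± 0.63 and at least 4.16 ± 0.54 (adjusted p = 0.0326 and 0.0234). Mgst1 was highest in mPTCL 4 and Ckap4 in mPTCL 5, with signals of 5449 and 2524.

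**Figure D2:**
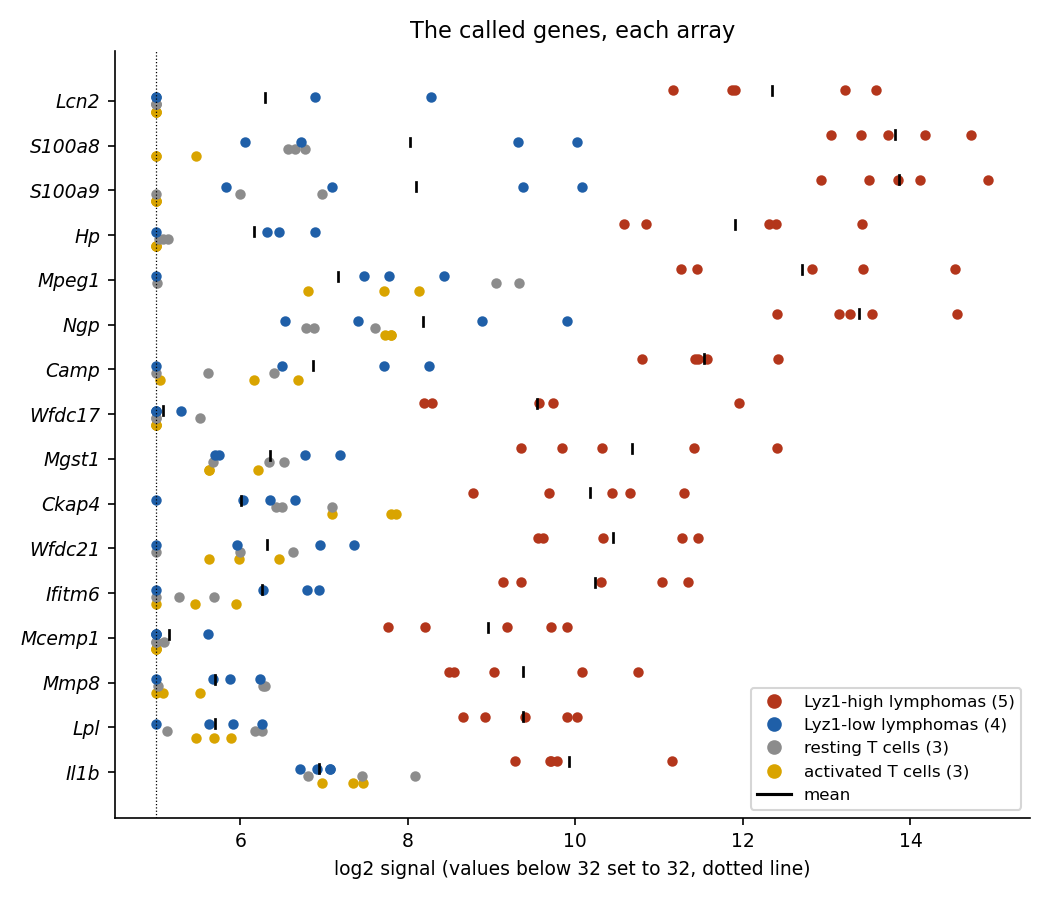
Rows are the 16 called genes and the horizontal axis is the log2 signal of each array; red and blue points are Lyz1-high and Lyz1-low lymphomas with their means as black bars, and grey and yellow points are resting and activated T cells. In every row the 5 red points lie to the right of the 4 blue points, and to the right of all grey and yellow points.

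Promoter windows are shown for 6 of these neutrophil genes because their groups did not overlap, their windows hold a match to a motif of a myeloid factor, and 2 pairs of them are neighbours in the genome; they were chosen after the matches were seen. Each window runs from 250 bases before to 50 bases after the gene's start, 5′ to 3′ on the gene's strand, and comes from RefSeq on GRCm38.p6. Capitals mark matches to GAGGAAGT, a site form of PU.1 (encoded by Spi1), or to TTGCNNAA, a form of the C/EBP site, on either strand. The windows of S100a8 (chr3:90668821-90669120, plus strand) and S100a9 (chr3:90695672-90695971, minus strand) are from chromosome 3, those of Prtn3 (chr10:79879417-79879716, plus) and Elane (chr10:79886062-79886361, plus) from chromosome 10, and those of Ngp (chr9:110419558-110419857, plus) and Mmp8 (chr9:7558179-7558478, plus) from chromosome 9.
S100a8: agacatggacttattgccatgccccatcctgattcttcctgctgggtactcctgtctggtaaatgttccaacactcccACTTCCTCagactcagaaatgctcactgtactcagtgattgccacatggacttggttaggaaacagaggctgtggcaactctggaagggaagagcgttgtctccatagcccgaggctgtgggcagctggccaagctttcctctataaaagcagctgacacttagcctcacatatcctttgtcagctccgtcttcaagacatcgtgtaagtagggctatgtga
S100a9: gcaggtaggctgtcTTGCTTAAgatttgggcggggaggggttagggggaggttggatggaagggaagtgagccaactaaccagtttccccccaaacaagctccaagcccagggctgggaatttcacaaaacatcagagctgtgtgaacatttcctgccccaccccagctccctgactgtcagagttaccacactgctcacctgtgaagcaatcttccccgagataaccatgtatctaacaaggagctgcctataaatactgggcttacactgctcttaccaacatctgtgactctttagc
Ngp: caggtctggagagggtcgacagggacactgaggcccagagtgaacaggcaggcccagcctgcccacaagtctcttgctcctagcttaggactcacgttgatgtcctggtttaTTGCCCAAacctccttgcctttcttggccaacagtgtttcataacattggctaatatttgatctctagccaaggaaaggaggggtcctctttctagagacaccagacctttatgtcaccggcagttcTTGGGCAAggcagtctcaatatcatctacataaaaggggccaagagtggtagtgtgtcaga
Mmp8: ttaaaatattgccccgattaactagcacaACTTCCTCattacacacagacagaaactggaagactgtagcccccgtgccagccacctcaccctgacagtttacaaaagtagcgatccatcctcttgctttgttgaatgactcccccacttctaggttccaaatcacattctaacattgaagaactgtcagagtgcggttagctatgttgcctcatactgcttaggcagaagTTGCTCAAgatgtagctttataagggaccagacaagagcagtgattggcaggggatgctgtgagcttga
Elane: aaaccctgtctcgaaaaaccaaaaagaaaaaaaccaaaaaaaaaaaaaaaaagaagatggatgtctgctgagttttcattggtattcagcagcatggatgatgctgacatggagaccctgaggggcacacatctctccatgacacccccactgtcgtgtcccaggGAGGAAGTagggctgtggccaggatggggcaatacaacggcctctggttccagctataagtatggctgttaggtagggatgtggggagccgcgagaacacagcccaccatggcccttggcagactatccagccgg
Prtn3: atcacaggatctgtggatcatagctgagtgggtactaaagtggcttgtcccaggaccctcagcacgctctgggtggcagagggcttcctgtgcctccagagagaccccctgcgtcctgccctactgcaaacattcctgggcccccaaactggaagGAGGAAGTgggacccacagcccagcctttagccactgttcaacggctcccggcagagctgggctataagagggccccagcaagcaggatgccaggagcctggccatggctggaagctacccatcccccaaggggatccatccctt

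The C/EBP form occurred 2 times in the Ngp window, beginning 138 and 11 bases before the start, and once each in those of Mmp8 (19 bases before) and S100a9 (236 bases before). The PU.1 form began 172 bases before the start of S100a8, 221 before that of Mmp8, 85 before that of Elane and 95 before that of Prtn3. Over the called genes, 13 had a window. The PU.1 form lay in 2 of their 14 windows (14.3%) and in 1052 of all 32851 windows of 300 bases (3.2%). The C/EBP form lay in 5 of the 14 (35.7%) and in 3547 of all windows (10.8%). Hp, Lpl and Wfdc21 were matched to no window. A match is a match of letters and was not tested as a site.

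Primary granule genes, which neutrophils transcribe at the promyelocyte stage, had positive differences, none of them called. All 6 listed were tested, 0 were called by limma, 5 were higher at an unadjusted p under 0.05 and those 5 did not overlap between the groups, against 4.08% and 1.86% of all genes. The median difference was 3.92, and 4 of the 6 were tested through their Lyz1-high signals alone. The 2 lymphomas highest in most of these genes, mPTCL 5 and 4, are those with the highest actin ratios and array medians, whose part in these levels was not tested.

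Mpo, myeloperoxidase, which makes hypochlorous acid, had 1534, 332, 4675, 8790.1 and 1049.9 in Lyz1-high lymphomas, against 41.4, 69.4, 58.5 and 77.4 in Lyz1-low lymphomas (4.95 ± 0.83, adjusted p = 0.0614). Ctsg, the protease cathepsin G, had 862, 232, 3683, 6211 and 619 in Lyz1-high and 8.71, 50.9, 2.63 and 6.94 in Lyz1-low lymphomas (at least 5.10 ± 0.86, adjusted p = 0.0614). Both fell in the same order within the Lyz1-high group, highest in mPTCL 5 and 4 and lowest in mPTCL 2, and were more than 20-fold higher in mPTCL 5 than in mPTCL 2. Neither was called. Both became called with median centring (adjusted p = 0.0368 for each), with array weights (0.0296 for each) and without mPTCL 2 (0.0251 for each). Since mPTCL 2 held their lowest Lyz1-high signals, leaving it out made a call more likely.

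Prtn3, proteinase 3, and Elane, neutrophil elastase, whose promoters are printed above, kept that order. Prtn3 had 584, 181, 2809.6, 4249 and 504 in Lyz1-high and 24.5, 26.8, 40.8 and 50.8 in Lyz1-low lymphomas (at least 4.58 ± 0.84, adjusted p = 0.0774). Elane had 408, 109.8, 1391, 1898 and 374 in Lyz1-high and 23.6, 84.8, 62.0 and 68.4 in Lyz1-low lymphomas (at least 3.20 ± 0.77, adjusted p = 0.261). In mPTCL 2 the Elane signal was only a little above the highest Lyz1-low signal, in mPTCL 6. Ms4a3, a marker of granulocyte and monocyte progenitors in mice, ran from 206 to 4307 in Lyz1-high lymphomas and from 57.1 to 115 in Lyz1-low lymphomas (adjusted p = 0.319).

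Serpinb1a, which inhibits elastase, was the exception in this list, with 4082, 1121, 2022, 3769 and 542 in Lyz1-high and 1475, 4658, 744 and 91.1 in Lyz1-low lymphomas. Its highest signal was in the Lyz1-low mPTCL 6, and its difference was 1.12 ± 1.03 (adjusted p = 0.996). Olfm4, olfactomedin 4, a protein of a subset of neutrophil granules, was again highest in mPTCL 5 and 4, with 208, 170.0, 2129, 5984 and 355 in Lyz1-high and 7.05, 17.5, 19.6 and 47.8 in Lyz1-low lymphomas (at least 4.29 ± 0.99, adjusted p = 0.226).

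Of 3 receptors of mature neutrophils, Csf3r and Fpr2 missed the threshold and Cxcr2 was not tested. Csf3r, the receptor for granulocyte colony-stimulating factor, had 426, 89.3, 343, 333 and 138 in Lyz1-high lymphomas, while in Lyz1-low lymphomas all 4 signals were under 32, running from 12.3 to 18.5 (at least 2.82 ± 0.51, adjusted p = 0.0774). Cxcr2, a chemokine receptor by which neutrophils leave the marrow, was not tested: it read 79.0, 7.72, 16.7, 108 and 78.3 in Lyz1-high and 7.48, 6.32, 15.0 and 8.29 in Lyz1-low lymphomas. Fpr2, a receptor for formylated bacterial peptides, had 4049, 602, 2791, 787 and 690.2 in Lyz1-high and 112, 133, 12.1 and 150.1 in Lyz1-low lymphomas (at least 3.82 ± 0.69, adjusted p = 0.0774). Fpr2 was highest in mPTCL 1 and 4, unlike the primary granule genes.

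Other genes of this class split the Lyz1-low group. Clec4e, the lectin receptor Mincle, had 1467, 145, 1821, 296 and 270.5 in Lyz1-high lymphomas and 277, 1.91, 3.54 and 4.47 in Lyz1-low lymphomas (adjusted p = 0.48). Il1r2, the decoy receptor of interleukin-1, had 485, 211, 4575, 5504 and 142 in Lyz1-high and 458, 55.4, 6.84 and 93.2 in Lyz1-low lymphomas (adjusted p = 0.787). In both, mPTCL 3 reached the range of the Lyz1-high lymphomas although its S100a8 and S100a9 signals were the lowest of all 9. Slfn4, a schlafen protein of myeloid cells, did not overlap, with 9891, 1646, 2351, 4207 and 1657 in Lyz1-high and 63.2, 354, 11.4 and 317 in Lyz1-low lymphomas (at least 4.64 ± 0.81, adjusted p = 0.0721).

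Markers of monocytes and macrophages had higher mean signals in most members, though none was called. Of 13 monocyte markers tested of 16 listed, 0 were called, 6 were higher at an unadjusted p under 0.05 and 4 did not overlap, with a median difference of 2.12 (over all genes, 4.08% were higher and 1.86% did not overlap). Of 21 macrophage and Kupffer cell markers tested of 26 listed, 0 were called, 13 were higher at an unadjusted p under 0.05 and 10 did not overlap, and the median difference was also 2.12. No member of either list was lower at that p, and 4 monocyte and 6 macrophage markers were tested through their Lyz1-high signals alone.

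Fn1, fibronectin, which monocytes and macrophages as well as stromal cells make, came nearest to a call, with 2869, 1553, 16213, 1927 and 818 in Lyz1-high and 152, 123, 68.1 and 77.8 in Lyz1-low lymphomas (4.69 ± 0.74, adjusted p = 0.0535). F13a1, the A chain of coagulation factor XIII, had 1587, 508, 5384, 1925 and 519 in Lyz1-high and 297, 149, 83.0 and 164 in Lyz1-low lymphomas (3.10 ± 0.70, adjusted p = 0.201). Both were highest in mPTCL 4. Tgfbi, a secreted matrix protein abundant in monocytes and macrophages, likewise peaked in mPTCL 4, with 6028, 1558, 25778, 4019 and 1096 in Lyz1-high and 337, 156, 32.4 and 113 in Lyz1-low lymphomas (5.10 ± 0.94, adjusted p = 0.0774).

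The 2 chemokine receptors that tell monocyte types apart had different orders. Ccr2, of classical monocytes, had 1275, 501, 2022, 60.4 and 219 in Lyz1-high and 33.3, 72.6, 158 and 121 in Lyz1-low lymphomas, and mPTCL 5 lay within the Lyz1-low range (adjusted p = 0.792). Cx3cr1, of patrolling monocytes, had 137, 1086, 78.4, 114 and 282 in Lyz1-high lymphomas, with mPTCL 2 far above the others, and 9.97, 15.3, 13.3 and 17.3 in Lyz1-low lymphomas (at least 2.69 ± 0.70, adjusted p = 0.326). Itgam, the integrin CD11b of neutrophils and monocytes, was dim, with 238, 108, 512, 139 and 99.1 in Lyz1-high and 87.7, 4.36, 6.09 and 22.4 in Lyz1-low lymphomas (at least 2.12 ± 0.58, adjusted p = 0.397).

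Csf1r, the receptor for macrophage colony-stimulating factor, had 10455, 1822, 21193, 3698 and 2663 in Lyz1-high lymphomas, against 467, 266, 140.1 and 769 in Lyz1-low lymphomas (3.95 ± 0.75, adjusted p = 0.0918). Activated T cell samples carried 108 to 165 and resting samples 855 to 2247, the resting ones being above all 4 Lyz1-low lymphomas and around the level of mPTCL 2. The complement gene C1qa showed the same, with 729, 191, 3915, 1796 and 539 in Lyz1-high lymphomas, 79.5, 79.2, 7.45 and 204 in Lyz1-low lymphomas and 248 to 429 in resting samples (adjusted p = 0.27). In both genes all 4 Lyz1-low lymphomas lay below all 3 resting samples.

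Kupffer cells are the resident macrophages of the liver. Cd5l, a secreted protein of tissue macrophages including Kupffer cells, had 599, 746, 1041, 867 and 2092 in Lyz1-high and 57.6, 18.2, 67.7 and 387 in Lyz1-low lymphomas (at least 3.54 ± 0.68, adjusted p = 0.0925), and was called without mPTCL 9 (adjusted p = 0.0124). Since mPTCL 9 held the highest Lyz1-low signal of Cd5l, leaving it out made a call more likely. Cd5l was highest in mPTCL 8. Clec4f, a Kupffer cell lectin, was too dim to test, and exceeded 100 only in mPTCL 2 and 8, with 21.8, 233, 7.71, 41.4 and 323 in Lyz1-high and 6.28, 9.80, 36.0 and 6.92 in Lyz1-low lymphomas. Vsig4, a complement receptor of Kupffer cells, had 28.4, 149, 157, 285 and 268 in Lyz1-high and 35.0, 13.6, 16.8 and 3.94 in Lyz1-low lymphomas (adjusted p = 0.489). These 3 genes were thus not highest in mPTCL 1 or 4, where Csf1r was highest.

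Cd68, a lysosomal glycoprotein of macrophages, had 1327, 414, 3517, 1097 and 564 in Lyz1-high and 242, 251, 158 and 338 in Lyz1-low lymphomas (2.12 ± 0.57, adjusted p = 0.39). Apoe, apolipoprotein E, which macrophages and hepatocytes secrete, had 4784, 1644, 27409.9, 21136 and 2365 in Lyz1-high and 1032, 537, 194 and 316 in Lyz1-low lymphomas (3.90 ± 0.88, adjusted p = 0.201). Apoe was highest in mPTCL 4 and 5, where Alb was 78.9 and 77.9, and the source of its RNA was not tested.

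Of 29 receptors and adaptors of myeloid cells tested of 40 listed, 0 were called, 20 were higher at an unadjusted p under 0.05 and 12 did not overlap, against 4.08% and 1.86% of all genes, with a median difference of 2.55; 10 of the 29 were tested through their Lyz1-high signals alone. Clec7a, Dectin-1, the receptor for fungal β-glucan, had 3554, 565, 4577, 1634 and 1106 in Lyz1-high and 213, 112, 13.1 and 118 in Lyz1-low lymphomas (at least 4.17 ± 0.70, adjusted p = 0.0614). Fcgr4, an Fc receptor for IgG, had 2446, 624, 1776, 547 and 999 in Lyz1-high and 153, 239, 86.3 and 171 in Lyz1-low lymphomas (2.83 ± 0.50, adjusted p = 0.0765). Cd14, the co-receptor for lipopolysaccharide, had 299, 292, 1279, 1625 and 436 in Lyz1-high and 28.4, 93.3, 7.37 and 162 in Lyz1-low lymphomas (at least 3.26 ± 0.70, adjusted p = 0.163). The groups did not overlap in these 3 receptors.

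The signalling adaptors Tyrobp and Fcer1g, members of the same list, overlapped between the groups. Tyrobp, the adaptor DAP12 of myeloid and NK cell receptors, had 3232, 4273, 8715, 2433 and 8398 in Lyz1-high and 7973, 84.4, 76.1 and 12881 in Lyz1-low lymphomas (adjusted p = 0.981). Fcer1g, the Fc receptor γ chain, had 1836, 3079, 3101, 938 and 1661 in Lyz1-high and 293, 219, 73.4 and 6098 in Lyz1-low lymphomas (adjusted p = 0.92). In both genes mPTCL 9 had the highest signal of all 9, and in Tyrobp mPTCL 3 also lay in the upper range, while mPTCL 6 and 7 had under 100.

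Of 12 myeloid transcription factors tested of 13 listed, 0 were called, 3 were higher at an unadjusted p under 0.05 (Cebpa, Cebpd and Tfec) and 2 did not overlap, against 4.08% and 1.86% of all genes. The median difference was 1.14, and 1 of the 12 was tested through its Lyz1-high signals alone. Spi1, which encodes PU.1, the factor that sets up the myeloid programme, had 539, 110.1, 1102, 654 and 110.0 in Lyz1-high and 643, 13.7, 12.3 and 7.13 in Lyz1-low lymphomas (adjusted p = 0.91), so mPTCL 3 was at the level of mPTCL 5. Cebpa, C/EBPα, needed for granulocyte development, had 412, 132, 1243, 750.4 and 159 in Lyz1-high and 13.1, 104, 19.3 and 34.2 in Lyz1-low lymphomas (at least 3.13 ± 0.72, adjusted p = 0.219), with all Lyz1-high signals above the others.

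Of 17 genes of the phagocyte oxidase and of myeloid signalling tested, of 20 listed, 0 were called, 4 were higher at an unadjusted p under 0.05 and 0 did not overlap, against 4.08% and 1.86% of all genes. The median difference was 0.71. Ncf1, the p47 subunit of the oxidase, had 5460.2, 2631, 7508, 2993 and 1275 in Lyz1-high and 7184, 129.7, 199 and 239.9 in Lyz1-low lymphomas (adjusted p = 0.751), and activated T cells carried 9088 to 11081. Without mPTCL 3 its difference was 4.18 and it was called (adjusted p = 0.0413). Since mPTCL 3 was the only Lyz1-low lymphoma in the Lyz1-high range, this was largely fixed in advance. Alox5ap, which presents arachidonic acid for leukotriene synthesis, was also high in mPTCL 3, with 4902, 1980.0, 19995, 6928 and 1552 in Lyz1-high and 13592, 271, 302 and 195 in Lyz1-low lymphomas (adjusted p = 0.906). Cybb, the membrane subunit of the oxidase, which is listed with the secondary granules, did not overlap: it had 1904, 297, 2251, 3069.7 and 254 in Lyz1-high and 62.3, 45.6, 8.80 and 78.3 in Lyz1-low lymphomas (at least 4.27 ± 0.79, adjusted p = 0.08).

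Among cathepsins and genes of lysosomes and lipid handling, 19 of 21 listed were tested, and Lpl was the only one called. Another 3 were higher at an unadjusted p under 0.05 (Ctsh, Ctss and Psap), and 2 of the 19 did not overlap. Over all genes, 0.145% were called higher, 4.08% were higher at that p and 1.86% did not overlap. The median difference of the list was 0.92, and 1 of the 19 was tested through its Lyz1-high signals alone. Ctsh, cathepsin H, had 3956, 541, 9820.0, 11928 and 729 in Lyz1-high and 106, 42.5, 2.86 and 213 in Lyz1-low lymphomas (at least 5.25 ± 1.01, adjusted p = 0.0925), and was highest in mPTCL 5 and 4.

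Of 15 inflammatory chemokines and cytokines tested of 24 listed, 0 were called, 6 were higher at an unadjusted p under 0.05 and 2 did not overlap, against 4.08% and 1.86% of all genes, with a median difference of 1.02. Of the 15, 3 were tested through their Lyz1-high signals alone. The 2 without overlap were Ccl9 and Ccl6, chemokines of mouse myeloid cells. Ccl9 had 1017, 511, 4492, 943 and 495 in Lyz1-high and 134, 50.8, 32.5 and 56.8 in Lyz1-low lymphomas (4.10 ± 0.67, adjusted p = 0.0614), and Ccl6 had 2340.1, 1683, 4583, 1413 and 1391 in Lyz1-high and 169, 178, 20.2 and 776 in Lyz1-low lymphomas (at least 3.63 ± 0.78, adjusted p = 0.163). Cxcl2, which attracts neutrophils, had 630.2, 2709, 2424, 18329 and 3261 in Lyz1-high and 9.28, 1235, 24.7 and 41.5 in Lyz1-low lymphomas (adjusted p = 0.241). Cxcl2 was highest in mPTCL 5, and the Lyz1-low mPTCL 6 exceeded mPTCL 1.

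**Figure D3:**
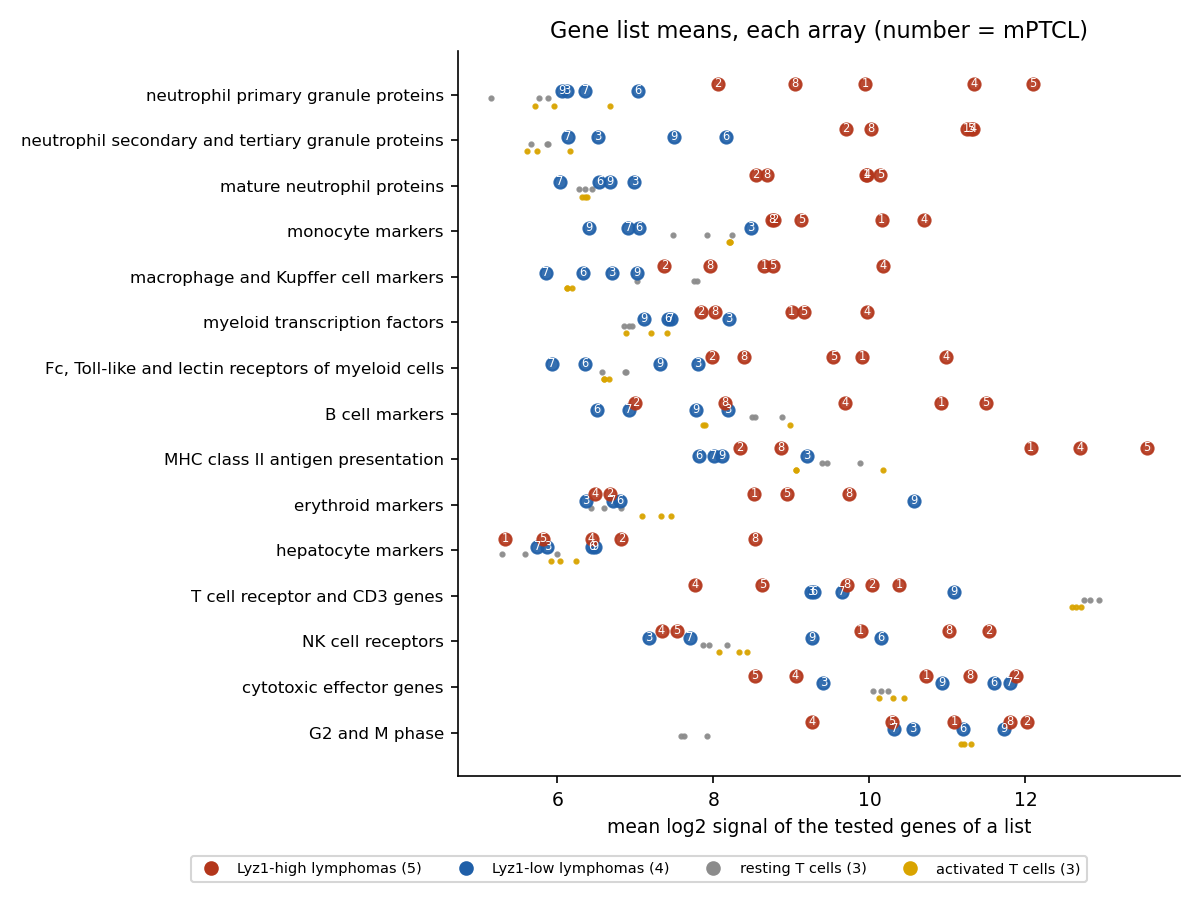
Rows are gene lists and the horizontal axis is the mean log2 signal of a list's tested genes in 1 array; numbered red points are Lyz1-high and numbered blue points Lyz1-low lymphomas, and small grey and yellow points are resting and activated T cells. Red and blue points do not overlap in the 3 neutrophil lists, the monocyte list, the macrophage list or the receptor list, while in the B cell and MHC class II lists mPTCL 1, 4 and 5 stand apart from the other 6 lymphomas.

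The Lyz1-high lymphomas were not uniform, and mPTCL 1, 4 and 5 had the highest means of B cell markers. The mean log2 signal of 21 B cell markers was 10.92, 7.00, 9.69, 11.49 and 8.15 in Lyz1-high lymphomas, against 8.18, 6.51, 6.92 and 7.78 in Lyz1-low lymphomas, 7.86 to 8.98 in activated and 8.49 to 8.88 in resting T cells. Only mPTCL 1, 4 and 5 exceeded every normal sample, and mPTCL 2 and 8 lay within the Lyz1-low range. The lymphomas mPTCL 4 and 5 also had the highest actin ratios and array medians, which in them cannot be told apart from B cell RNA. In mPTCL 1 the actin ratio was 1.91 and the array median 94.3. Whether array quality had a part in the B cell means was not tested. Of the 21 markers, of 26 listed, 0 were called, 8 were higher at an unadjusted p under 0.05 (4.08% of all genes) and 1 (Fcmr) did not overlap (1.86% of all genes). Of the 21, 6 were tested through their Lyz1-high signals alone.

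Ms4a1, the B cell antigen CD20, had 10461, 113, 895, 21629 and 290.3 in Lyz1-high and 34.6, 61.5, 35.6 and 216 in Lyz1-low lymphomas (adjusted p = 0.618). Cd79a, the signalling chain of the B cell receptor, had 709, 60.2, 228, 3403 and 67.8 in Lyz1-high and 33.2, 31.9, 10.1 and 68.5 in Lyz1-low lymphomas (adjusted p = 0.751), and its partner Cd79b had 7219, 117, 1599, 15639 and 482 and 1015, 19.7, 47.6 and 302 in the same groups (adjusted p = 0.888). In all 3 genes mPTCL 5 was highest, followed by mPTCL 1 and then mPTCL 4. Fcmr, the Fc receptor for IgM, had 5931, 114, 333, 1454 and 358 in Lyz1-high and 39.6, 44.5, 27.1 and 92.1 in Lyz1-low lymphomas (at least 3.77 ± 1.00, adjusted p = 0.345).

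MHC class II genes are expressed by B cells, dendritic cells and macrophages. Of 9 tested of 10 listed, 0 were called, 4 were higher at an unadjusted p under 0.05 and 3 did not overlap, against 4.08% and 1.86% of all genes, with a median difference of 2.68. H2-Aa, an α chain, had 20117, 2511, 33347, 40296 and 3304 in Lyz1-high and 1713, 613, 237 and 746 in Lyz1-low lymphomas (4.16 ± 0.92, adjusted p = 0.184). Cd74, the invariant chain, had 20055, 1713, 36272, 39821 and 2541 in Lyz1-high and 1513, 329.6, 172 and 1238 in Lyz1-low lymphomas (4.20 ± 1.08, adjusted p = 0.323). H2-Eb1, a β chain, had 16546, 1173, 32434, 35534 and 1552 and 699.6, 344, 269.6 and 561 in the same groups (adjusted p = 0.301). For H2-Ab1 the groups overlapped, since mPTCL 2 and 8 with 1121 and 1105 lay under mPTCL 6 with 1609.

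Plasma and dendritic cell markers gave 2 of 7 tested (of 8 listed) and 1 of 7 tested (of 14 listed) higher at an unadjusted p under 0.05, against 4.08% of all genes, and 0 called. Of the plasma cell markers, 1 was tested through its Lyz1-high signals alone. Jchain, which joins IgM and IgA subunits, had 6269, 141, 15102, 25625 and 733 in Lyz1-high and 2950.1, 24.5, 32.9 and 222 in Lyz1-low lymphomas (adjusted p = 0.839), with mPTCL 3 above mPTCL 2 and 8.

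The called genes kept differences of at least 2-fold in the alternatives that involve the B cell markers, but none stayed called. Without mPTCL 1, 4 and 5, leaving 2 Lyz1-high and 4 Lyz1-low lymphomas, the differences of the 16 called genes ran from 2.55 to 5.22, all at least 2-fold, and 0 of them stayed called. The median difference was then 2.82 for the secondary and tertiary granule list, 2.39 for the primary granule list, 1.82 for the mature neutrophil list and 1.02 for the macrophage list. It was 0.06 for the B cell list and −0.05 for the MHC class II list. Since mPTCL 1, 4 and 5 were left out for their high B cell means, small values in these last lists were largely fixed in advance. With the B cell marker mean as a covariate over all 9 lymphomas, the differences ran from 2.41 to 5.40 and 0 were called, while 535 genes had an unadjusted p under 0.05. Of the 21 markers in that mean, 6 were tested through their Lyz1-high signals alone. Neither setting can tell B cell RNA from other traits of mPTCL 1, 4 and 5, and no cause was tested.

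**Figure D4:**
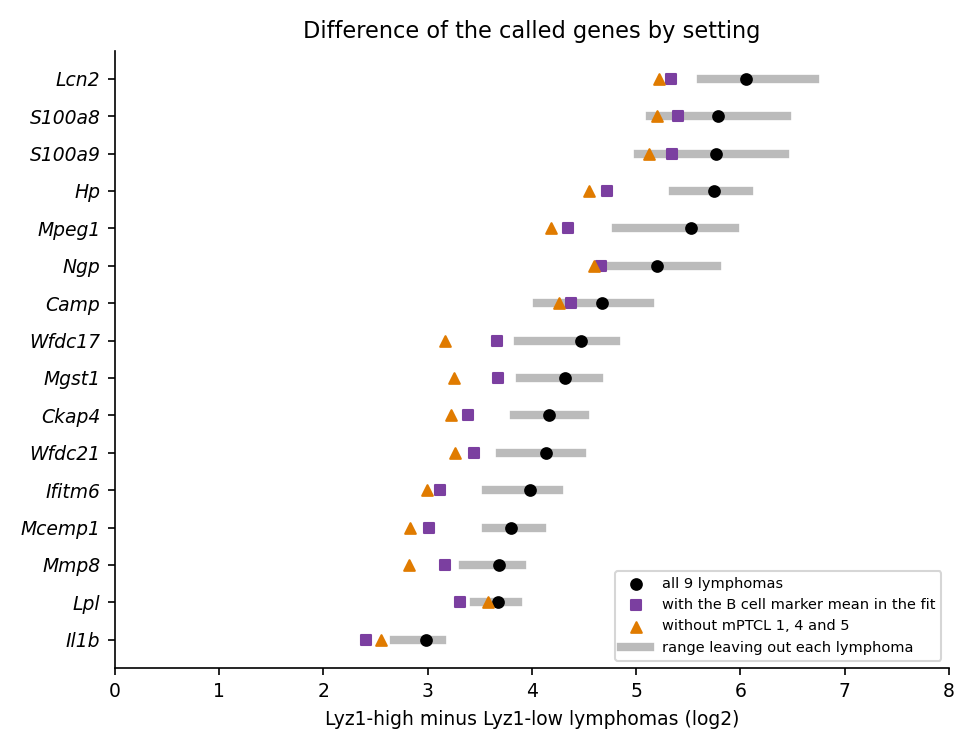
Rows are the 16 called genes and the horizontal axis is the Lyz1-high minus Lyz1-low difference (log2); circles use all 9 lymphomas, squares add the B cell marker mean to the fit, triangles leave out mPTCL 1, 4 and 5, and grey bars span the values with each lymphoma left out in turn. All points lie above 2, from 2.41 upwards, although the triangles and squares are mostly left of the circles.

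No difference was detectable in markers of the remaining cell types. Erythroid markers, 12 tested of 18 listed, had 0 called and 0 at an unadjusted p under 0.05 in either direction. Their mean log2 signal was 8.52, 6.67, 6.48, 8.94 and 9.74 in Lyz1-high and 6.37, 6.80, 6.71 and 10.57 in Lyz1-low lymphomas, so mPTCL 9 and 8 were highest. Alas2, the first enzyme of haem synthesis in red cell precursors, had 244, 141, 34.9, 544 and 945 in Lyz1-high and 8.75, 20.4, 6.53 and 1559 in Lyz1-low lymphomas (adjusted p = 0.996), and Car2, carbonic anhydrase 2, had 9347, 5017, 229, 2448 and 27449 and 64.9, 4657, 119 and 21249.5 in the same groups (adjusted p = 0.996).

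Platelet markers (5 tested of 13 listed), mast cell, basophil and eosinophil markers (4 of 13), hepatocyte markers (3 of 15) and endothelial and stromal markers (7 of 16) had 0 called and 0 at an unadjusted p under 0.05 in either direction. Ppbp, a platelet chemokine, was too dim to test, at 16.9 to 306 in Lyz1-high and 3.30 to 48.5 in Lyz1-low lymphomas. Cpa3, carboxypeptidase A of mast cells, was highest in the Lyz1-low mPTCL 3, with 118, 2393, 4202, 62.5 and 179 in Lyz1-high and 20958, 135, 162 and 190.1 in Lyz1-low lymphomas (adjusted p = 0.996). Its signals were 625 to 934 in activated and 5.78 to 76.6 in resting T cells, and the source of its RNA was not tested.

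T cell genes did not differ detectably with the split. Of 7 T cell receptor and CD3 genes tested of 10 listed, 0 were called and 0 had an unadjusted p under 0.05. Their mean log2 signal was 10.38, 10.03, 7.77, 8.63 and 9.72 in Lyz1-high and 9.25, 9.29, 9.65 and 11.08 in Lyz1-low lymphomas, all below the 12.59 to 12.71 of activated and 12.75 to 12.95 of resting T cells. Cd3e, a CD3 chain that every mature T cell needs for its receptor, had 2450.3, 1921, 23.0, 524 and 2067 in Lyz1-high and 51.4, 1839, 3377 and 4965 in Lyz1-low lymphomas (adjusted p = 0.996). In each group 1 lymphoma, mPTCL 4 and mPTCL 3, thus lacked a clear signal of this defining marker. Cd3g was present in both, with 7549.6, 5234, 1999, 1125 and 7229 in Lyz1-high and 6821, 1855, 9984 and 16210.1 in Lyz1-low lymphomas (adjusted p = 0.996).

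Of 23 genes of T cell identity and proximal signalling tested of 27 listed, 0 were called and 1, Prkcq, was lower at an unadjusted p under 0.05 (1.4% of all genes). Prkcq, protein kinase C θ, which relays receptor signals, had 681, 1046, 797, 485 and 1142 in Lyz1-high and 2377, 1940.3, 2520.4 and 654 in Lyz1-low lymphomas (-1.07 ± 0.44, adjusted p = 0.83), where mPTCL 9 lay among the Lyz1-high values.

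NK cell receptors, 15 tested of 20 listed, had 0 called and 1, Slamf7, higher at an unadjusted p under 0.05 (4.08% of all genes). Slamf7, a SLAM family receptor of NK, plasma and myeloid cells, had 2183, 2371, 1658, 3568 and 1392 in Lyz1-high and 248, 532, 861 and 388 in Lyz1-low lymphomas (2.21 ± 0.40, adjusted p = 0.0774), without overlap. Activated T cells carried 2845 to 3798, around the upper values of the Lyz1-high lymphomas. Klrk1, the receptor NKG2D, had 717, 8962, 936, 179 and 6806 in Lyz1-high and 74.3, 5029, 50.7 and 63.7 in Lyz1-low lymphomas (adjusted p = 0.941), and mPTCL 2, 8 and 6 lay far above the other 6.

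Cytotoxic effector genes, 18 tested, had 0 called and 0 at an unadjusted p under 0.05. Gzmb, granzyme B, came closest, with 1362, 31401, 118, 193 and 2915 in Lyz1-high and 1794, 36800.4, 20663 and 23833 in Lyz1-low lymphomas (-3.44 ± 1.55, unadjusted p = 0.0503, adjusted p = 0.906). The 3 lowest Gzmb signals were those of mPTCL 4, 5 and 1, the 3 lymphomas with high B cell markers, and without them the difference was −0.49. The median difference of the cytotoxic list turned, from −0.48 over all 9 lymphomas to 0.68 without those 3, and that of the NK cell receptors was 0.81 and 2.29. Whether B cell RNA or array quality had a part in this was not tested.

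No gene of the proliferation lists was called. Of 28 S phase genes tested of 30 listed and 28 genes of the G2 and M phases tested of 29 listed, 0 were called and 0 had an unadjusted p under 0.05. Their median differences were −0.40 and −0.05. Without mPTCL 1, 4 and 5 the direction turned, to 0.35 for the S phase and 0.98 for the G2 and M phases. The reason was not tested. Mki67, a marker of dividing cells, had 13328, 18298, 3665, 9778 and 16636 in Lyz1-high and 8606, 14460.2, 8031 and 14605 in Lyz1-low lymphomas (-0.03 ± 0.45, adjusted p = 0.998), with mPTCL 4 lowest of all 9. Of 24 interferon response genes tested of 27 listed, 0 were called and 1, Ifitm3, was higher at an unadjusted p under 0.05 (4.08% of all genes). Ifitm3, which blocks the entry of viruses, had 11285, 1468, 4295, 1452 and 1115 in Lyz1-high and 163, 416, 486 and 501 in Lyz1-low lymphomas (2.85 ± 0.68, adjusted p = 0.253), without overlap.

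**Figure D5:**
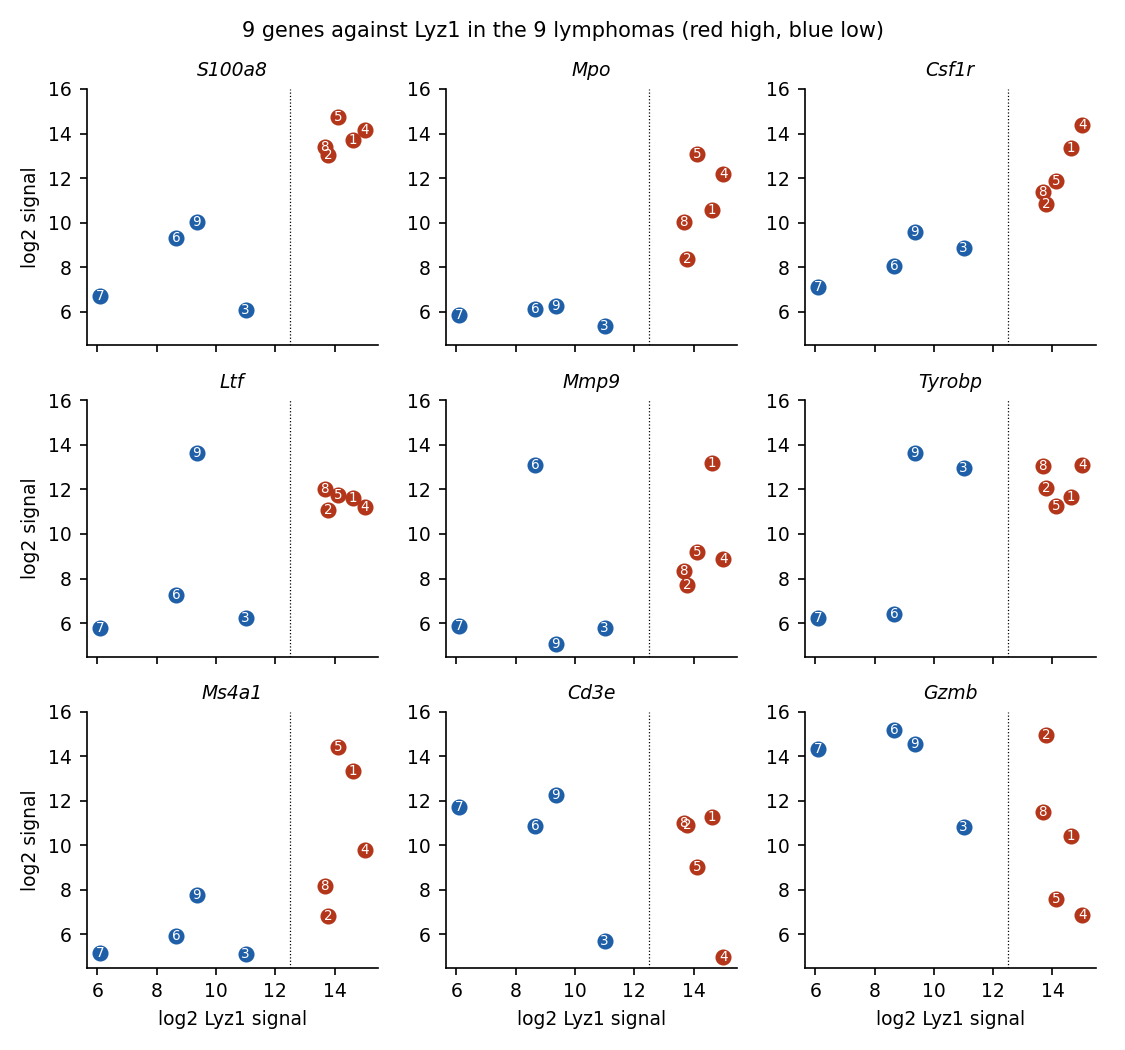
Each panel sets the log2 signal of 1 gene (vertical axis) against the log2 Lyz1 signal (horizontal axis) in the 9 lymphomas, numbered; red is Lyz1-high, blue is Lyz1-low and the dotted line is the dividing value of 5800. S100a8, Mpo and Csf1r separate the groups, Ltf, Mmp9 and Tyrobp are high in some Lyz1-low lymphomas, Ms4a1 is high in mPTCL 1, 4 and 5, and Cd3e and Gzmb overlap between the groups.

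Genes were ranked from the highest positive Pearson correlation with log2 Lyz1 signal over the 9 lymphomas, predicted and clone-named genes aside. The first 5 were Mpeg1 (0.97), Clec7a (0.96), Hp (0.96), Chil3 (0.96) and Ifitm6 (0.95). This is a description with no test. Lyz1 itself set the 2 groups apart, so a gene that separates them tends to have a high value, and the arrays share their scaling. Within the Lyz1-high group, all 5 had higher signals in mPTCL 1 and 4 than in mPTCL 2 and 8. Lyz1 itself had this order, so the choice of genes by their correlation with it largely fixed this in advance.

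No gene was called lower in Lyz1-high lymphomas, and the tested genes with the smallest p among those with separate groups are given as not called. Zfp982, a zinc finger gene on chromosome 4, was 97.5, 7.21, 36.4, 54.2 and 286 in Lyz1-high lymphomas, against 1224, 870.1, 728 and 3327 in Lyz1-low lymphomas (at least -4.16 ± 0.69 in size, adjusted p = 0.0614). It was called lower with a floor of 64 (adjusted p = 0.0472), with array weights (0.0387) and without mPTCL 8 (0.046). The lymphoma left out, mPTCL 8, held its highest Lyz1-high signal. Activated and resting T cells carried 207 to 354 and 405 to 560.4, below all 4 Lyz1-low lymphomas. The value came from a probe set whose name marks it as able to bind several transcripts.

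The next of these genes had smaller differences. Etfbkmt, a mitochondrial lysine methyltransferase, had 592, 335, 506, 263 and 469 in Lyz1-high and 1191, 1895, 1232 and 714 in Lyz1-low lymphomas (-1.52 ± 0.36, adjusted p = 0.241). Slc39a5, a zinc transporter, differed by at least -2.10 ± 0.54 in size and Ifi27, an interferon-induced protein, by -1.55 ± 0.50 (adjusted p = 0.323 and 0.597). Uqcrq, a subunit of respiratory complex III, ran from 1870.2 to 3251 in Lyz1-high and from 3393 to 5214 in Lyz1-low lymphomas (-0.81 ± 0.24, adjusted p = 0.497). The other 7 named by the same rule, Gtpbp10, Samd11, Shfl, Stk26, Smim8, Tmem256 and H2az2, had differences between −1.35 and −0.70 and adjusted p between 0.481 and 0.595.

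The 4 Lyz1-low lymphomas also differed among themselves in myeloid genes. Across the 3 neutrophil lists, mPTCL 6 had the highest Lyz1-low mean for primary granules (7.04) and for secondary and tertiary granules (8.16), and mPTCL 3 had the highest for mature neutrophil proteins (6.99). Single genes weighed on the means of mPTCL 6. Its primary granule mean held Serpinb1a at 12.19, while the other members ran from 5 (Prtn3) to 6.84 (Ms4a3). Its secondary and tertiary mean held Mmp9 at 13.11. The Lyz1-high means were 9.95, 8.06, 11.34, 12.10 and 9.04 for primary granules, 11.25, 9.70, 11.33, 11.30 and 10.01 for secondary and tertiary granules and 9.96, 8.54, 9.97, 10.14 and 8.69 for mature proteins. In activated cells these lists had means of 5.72 to 6.67, 5.62 to 6.16 and 6.32 to 6.38, and in resting cells 5.15 to 5.89, 5.66 to 5.88 and 6.28 to 6.44. The primary granule list thus varied most within the Lyz1-high group, over 4.04 log2 units between mPTCL 5 and mPTCL 2, against 1.63 for the secondary and tertiary list and 1.60 for the mature list.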

How the data were processed

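RNA of 15 samples was measured on 1 oligonucleotide array each. What the authors deposited is a linear intensity per probe set. Per the submitters' processing notes, they obtained it with MAS5 in Affymetrix Expression Console (1.1 for the lymphoma arrays; for the normal arrays the sources used here give no version). No detection calls were used, and the number of arrays limits the precision.

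Of 45101 probe sets, 34958 had 1 gene symbol in the platform annotation, 932 had several and 9211 had none; those with 1 symbol, without controls (34945), were used. Symbols of 34741 were updated by gene identifier with RefSeq. For each of 18193 genes the probe set of highest mean over the 15 arrays was taken. Values were floored at 32 and log2 was taken. Testing required a signal of 100 in 3 or more lymphoma arrays, which 11053 genes met, Lyz1 and Lyz2 aside.

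limma 3.58.1 in R 4.3.3 (lmFit, eBayes with a trend) was fitted to the 9 lymphomas, split by the Lyz1 signal, with Benjamini-Hochberg adjustment over all genes tested; the fit was tested on simulated data. The p-values concern which genes went along with a measured value. The split, the 26 gene lists and the naming rules were chosen with earlier results of these data known, so no list was tested. Lists are described by counts and medians. Named were the 12 largest increases among called genes, at most 4 called members per list, a constant set of marker genes, the 5 genes most correlated with Lyz1, and the 12 decreases with the smallest p. Further genes were named after their values were seen: Mcemp1, Ctsg, Prtn3, Ms4a3, Serpinb1a, Cd177, Fpr2, Mmp9, Slfn4, Olfm4, Il1r2, Clec4e, Fn1, F13a1, Tgfbi, Cx3cr1, Ccr2, Cd5l, Cd68, Apoe, Cebpa, Fcgr4, Ncf1, Alox5ap, Ctsh, Ccl9, Ccl6, Cxcl2, Fcmr, Cd79b, Jchain, H2-Aa, H2-Eb1, Alas2, Car2, Cpa3, Slamf7, Ifitm3, Prkcq and Cd3g. Ratios of 3′ to 5′ control probe sets and array medians were compared with exact permutation tests over 126 assignments.

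The alternatives changed the floor, filter, scaling, probe sets, trend, array weights, call rule, the split and its covariate, and left out lymphomas; the closing section gives their effect. The p53 gene itself is not analysed here.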

Additional observations from a re-analysis of the deposited data

Results flagged for a closer look

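Within the 5 Lyz1-high or the 4 Lyz1-low lymphomas, 27 of 243 sets of values had 1 lymphoma far from the others. Chance gives about 1 in 20 such sets, and for a dim gene the other arrays can all be at the floor of 5. Values are log2 signals unless a ratio is named.

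In the Lyz1-high group, Il1b was 11.15 in mPTCL 5, Mmp9 was 13.20 in mPTCL 1, H2az2 was 10.79 in mPTCL 4 (below the other 4), and the mean of the mast cell, basophil and eosinophil markers was 9.37 in mPTCL 4.

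In the Lyz1-low group, mPTCL 3 stood above the other 3 in Alox5ap (13.73), Ncf1 (12.81), Cpa3 (14.36), Spi1 (9.33), Clec4e (8.12), Itgam (6.46), Mcemp1 (5.61), Wfdc17 (5.30) and Vsig4 (5.13), and below them in Ifitm3 (7.35). These include Spi1, Ncf1 and Alox5ap of the myeloid lists and Cpa3 of the mast cell, basophil and eosinophil list. Its actin 3′ to 5′ ratio was 2.23, the highest of the 4.

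Also in that group, mPTCL 6 was apart in Mmp9 (13.11), Klrk1 (12.30), Cxcl2 (10.27), Cebpa (6.70) and Ctsg (5.67), and its Gapdh 3′ to 5′ ratio was 1.26, the lowest of the 4. The lymphoma mPTCL 9 was apart in Alas2 (10.61), in the mean of the erythroid markers (10.57), in Cd79a (6.10), in Ppbp (5.60) and in Olfm4 (5.58). In mPTCL 7, Clec4f was 5.17, with the other 3 at the floor.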

How the results depend on the processing

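The number of called genes, 16, depended on the processing. It was 13 to 19 with a floor of 16 or 64, log2(value + 16), a filter at 200 or over all 15 arrays, quantile normalisation, the mean of probe sets, no probe sets that bind several transcripts, no trend and the adjusted p alone. It was 1 without a filter, when 18191 genes were tested and none of the 16 was called, 31 with median centring and 48 with array weights, 47 of them higher. With the B cell marker mean as a covariate it was 0 by limma (535 genes at an unadjusted p under 0.05), and without mPTCL 1, 4 and 5 it was 1, none of the 16. With log2 Lyz1 signal as a continuous term 24 genes were called, including 7 of the 16. These 24 were called by adjusted p alone, without the 2-fold rule. The split at the widest gap gave the same 2 groups. Leaving out each lymphoma gave 0 to 27 calls. The cause of these moves was not tested.

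The sizes were steadier than the calls. In 24 alternatives the called genes that were measured kept differences of at least 2-fold, from 2.26 with the mean of probe sets to 6.72 without mPTCL 9. Over 91 named genes no alternative reversed a called direction. Of 2177 values of these genes under the alternatives, 144 lost a call of the main fit and 44 gained one. Genes that gained a call in some alternatives included Mpo, Ctsg, Prtn3, Fn1 and Csf3r. Median centring moved the median difference of all genes from 0.00 to −0.14, and the genes at an unadjusted p under 0.05 from 451 higher and 155 lower to 374 higher and 276 lower. No paired analysis was possible because each lymphoma has its own number and the lymphomas are 1 labelled group. Groups of 5 and 4, chosen by 1 measured gene, limit what these comparisons can show, and signals near the floor bound the differences of dim genes.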
